A study of Homo sapiens with 21 samples.

Results

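The comparison set 3 APP-V717F arrays against 3 wild-type arrays, all 6 from cultures that had received AG494, out of 21 arrays in the series. Members were taken by title, as the arrays of SH-SY5Y cells mutated to APP-V717F and of wild-type SH-SY5Y cells that the titles give as treated with AG494. SH-SY5Y is a human neuroblastoma line with features of immature sympathetic neurons. Both groups, APP_AG494 and WT_AG494, were first taken towards a neuronal state over 3 to 4 days by retinoic acid at 10 µM together with BDNF (brain-derived neurotrophic factor) at 50 ng/mL and then kept for 72 h with AG494 in 0.1% DMSO, so that the 2 groups shared every agent and differed by genotype. The labels give no dose of AG494. The other groups used below are the vehicle cultures, APP_DMSO and WT_DMSO (0.1% DMSO, 72 h), and the NOSCA cultures, APP_NOSCA and WT_NOSCA, with 3 arrays each and the same differentiation. NOSCA is a compound named in the labels by this word alone. A further group, WT_PALBO, holds the 3 arrays of wild-type cells that the titles give as treated with PALBO, and it was in no comparison. Its arrays entered the fit with its run terms and spread, the choice of probe sets and the summaries over all 21 arrays.

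The V717F substitution lies in the transmembrane stretch of the amyloid precursor protein beside the sites where gamma-secretase cuts, and mutations there cause familial Alzheimer's disease by shifting cleavage towards longer amyloid-beta peptides. AG494 is a tyrphostin, a small tyrosine kinase inhibitor made against the epidermal growth factor (EGF) receptor, which signals through RAS and ERK to early response genes and to entry into the cell cycle. Interferons act in neurons as in other cells through JAK kinases, STAT proteins and IRF9, which bind an interferon-stimulated response element (ISRE) before genes of antiviral defence and of antigen presentation on MHC class I.

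What limits the model is that the labels do not say how the mutation was introduced or whether the mutated line is 1 clone, so that APP itself and other differences between the lines cannot be told apart. The array measures the level of APP transcripts and does not read the substitution. APP read 12.16, 12.51 and 12.49 on the APP_AG494 arrays and 12.51, 12.46 and 12.63 on the WT_AG494 arrays. The groups overlapped, and the log2 difference of -0.15 ± 0.07 did not pass the test (adjusted p = 0.18), with the same sign in 12 of its 13 probe sets. With the mean of its probe sets in place of the probe set with the highest mean, it was called (adjusted p = 0.016).

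Values are log2 intensities, and a difference is the mean of APP_AG494 minus the mean of WT_AG494 on that scale, ± its standard error (SE) from the fit, with 3 arrays a group. Where 3 values are listed they are arrays of runs 1, 2 and 3 in that order. A gene is said to be called, to have risen or to have fallen where limma gave an adjusted p under 0.05 (Benjamini-Hochberg over 18132 genes). The series speaks of 3 independent experiments, which were taken to be the 3 runs of title numbers and held as a block. Where the runs were not separate cultures, the p-values measure technical spread only. Array medians lay between 7.88 and 8.03, and correlations between any 2 of the 21 arrays between 0.984 and 0.999. On the first principal component, with 41.8% of the variance, the 9 arrays of mutated cells lay on 1 side and the 12 of wild-type cells on the other.

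Between APP_AG494 and WT_AG494, 3068 of 18132 genes were called (16.9%), 1532 higher (8.45%) and 1536 lower (8.47%) in the mutated cells. With no run term in the fit, 1635 of the same genes were called, 743 higher and 892 lower. Without run 1 of WT_AG494 there were 2003 calls, and without the whole of run 1 or run 2 there were 1415 or 1395. Most differences were small: the median size among called genes was 0.38 on the log2 scale, and 328 genes rose and 383 fell by at least 1.5-fold. At least 4-fold rises were seen in 36 genes and such falls in 27. The 3 arrays of each group did not overlap in 4242 genes (23.4%), of which 2570 were called. Within the runs, 3054 of the called genes (99.5%) had the same sign in all 3, against 51.0% of all genes. The calls came from these same arrays with the run as a block, so this agreement largely follows from the call. The median over all genes was 0.02.

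The genes that rose most were interferon-stimulated genes. Of 61 measured interferon effectors, 48 rose, where 8.45% of all genes rose, and 0 fell, also at an unadjusted p under 0.05 in limma, and the list's median difference was 1.67 against 0.02 over all genes. IFITM1, a membrane protein that hinders virus entry, read 10.37, 11.23 and 11.07 on the APP_AG494 arrays and 5.86, 6.03 and 6.60 on the WT_AG494 arrays. The lowest mutated array lay above the highest wild-type array by more than 3 log2 units, and the difference was 4.73 ± 0.24, or 26.4-fold (adjusted p = 4.7e-10). IFIT1, which binds foreign RNA lacking the cap methylation of the host, read 10.84, 11.33 and 11.29 against 6.41, 6.40 and 6.89, a difference of 4.59 ± 0.21 (adjusted p = 1.3e-10). IFI44L read 10.75, 11.56 and 11.43 against 6.34, 6.60 and 7.21, a difference of 4.53 ± 0.18 (adjusted p = 4.1e-11). In both genes the wild-type arrays were low together, and run 1 was the lowest mutated array. OAS1, which makes the second messenger that activates RNase L, read 10.27, 10.99 and 10.84 against 6.47, 6.35 and 6.62 (difference 4.22 ± 0.24, adjusted p = 2.4e-09). GBP4, a guanylate-binding GTPase, read 9.43, 8.97 and 9.54 against 5.58, 5.30 and 5.06 (difference 4.00 ± 0.17, adjusted p = 6.3e-11). IFI27, a small mitochondrial protein, read 11.10, 12.10 and 12.31 against 7.94, 8.34 and 8.36, a difference of 3.62 ± 0.24 (adjusted p = 8.8e-09). None of these 6 genes had overlapping arrays, because the 12 largest rises and falls named here and below were taken only from such genes.

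**Figure D1:**
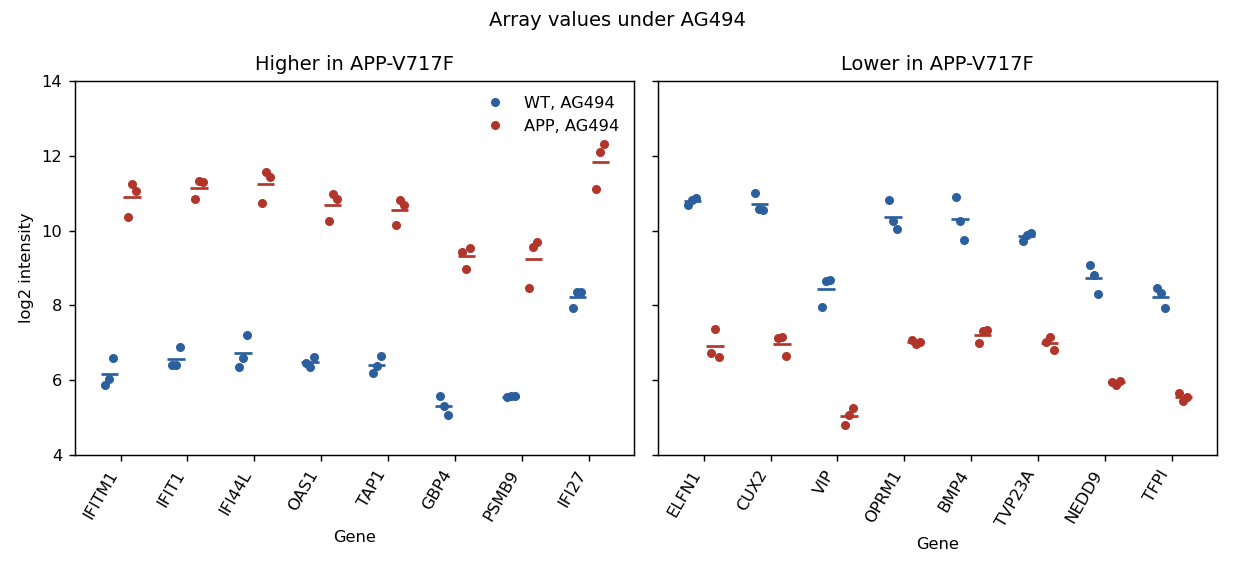
Log2 intensity (vertical axis) of 8 of the largest rises and 8 of the largest falls between genotypes under AG494 (horizontal axis), with 1 point per array, blue for WT_AG494 and red for APP_AG494, and a line at each mean. The 16 genes were taken from called genes whose groups do not overlap, and differences run from 4.73 for IFITM1 to -3.89 for ELFN1.

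Further rises were called in single genes. IFIH1 (MDA5), a sensor of viral RNA, read 7.64, 7.99 and 8.06 against 4.90, 4.68 and 4.75, a difference of 3.12 ± 0.18 (adjusted p = 2.4e-09). RIGI rose by 2.63, EIF2AK2, the kinase PKR, by 1.31, and TLR3, the endosomal sensor of double-stranded RNA, by 1.25 (adjusted p = 1.0e-09, 5.0e-09 and 4.5e-05). BST2, or tetherin, which holds budding virus at the membrane, read 8.89, 10.10 and 9.82 against 6.07, 6.16 and 6.33 (difference 3.42 ± 0.28, adjusted p = 1.4e-07). IFI44 read 12.00, 11.99 and 11.80 against 8.25, 8.45 and 9.10 (difference 3.33 ± 0.23, adjusted p = 1.6e-08). The groups stood apart in IFIH1, BST2 and IFI44 by the same choice. Not every member was called: ISG15, a ubiquitin-like modifier read by 1 probe set, was at 7.67, 8.13 and 8.03 against 7.79, 8.23 and 8.61, and IFITM2, a relative of IFITM1, at 11.70, 11.82 and 11.89 against 11.58, 11.54 and 11.55. Their differences were -0.27 ± 0.13 and 0.25 ± 0.09 (adjusted p = 0.21 and 0.069). The IFITM2 arrays did not overlap. Limma called it higher with dim genes left out, a trended prior or array weights (adjusted p = 0.0495, 0.026 and 0.018). Without run 1 of APP_AG494 IFITM2 was called as well (adjusted p = 0.025).

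Of 26 receptors, STATs and IRFs, which carry the interferon signal, 8 rose and 0 fell (1 at an unadjusted p under 0.05), with a median of 0.14. IRF7, the factor that drives interferon genes, read 10.26, 10.62 and 10.71 against 8.76, 8.84 and 9.14, a difference of 1.62 ± 0.09 (adjusted p = 2.3e-09). IRF9, the DNA-binding subunit of the ISRE complex, read 11.69, 11.78 and 11.58 against 9.98, 10.34 and 10.42, a difference of 1.43 ± 0.10 (adjusted p = 2.3e-08). IRF1 rose by 1.30 (adjusted p = 1.8e-08). The kinases JAK1 and TYK2 and the factor IRF3 differed by -0.04, -0.07 and 0.09 and were not called (adjusted p = 0.68, 0.49 and 0.46).

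The upstream sequence of 4 of the largest rises is shown because it holds letters that match the element that the interferon complex binds. Each is the 200 bases before the RefSeq start on GRCh38.p14, 5′ to 3′ on the gene's strand, with matches to an ISRE core, GAAA, any 2 bases and GAAA in a row, searched on both strands, in capitals.
IFITM1: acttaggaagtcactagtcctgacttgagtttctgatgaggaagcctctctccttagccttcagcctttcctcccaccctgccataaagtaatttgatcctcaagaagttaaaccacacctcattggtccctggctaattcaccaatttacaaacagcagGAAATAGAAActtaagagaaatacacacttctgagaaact
IFIT1: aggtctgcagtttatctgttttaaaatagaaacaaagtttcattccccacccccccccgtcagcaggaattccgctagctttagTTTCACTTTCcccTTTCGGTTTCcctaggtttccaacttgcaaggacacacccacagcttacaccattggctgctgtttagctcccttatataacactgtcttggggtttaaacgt
IFI44L: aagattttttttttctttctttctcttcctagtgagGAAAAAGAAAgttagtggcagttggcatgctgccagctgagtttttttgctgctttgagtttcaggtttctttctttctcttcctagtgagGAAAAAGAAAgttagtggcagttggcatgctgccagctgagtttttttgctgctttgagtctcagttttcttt
IFI27: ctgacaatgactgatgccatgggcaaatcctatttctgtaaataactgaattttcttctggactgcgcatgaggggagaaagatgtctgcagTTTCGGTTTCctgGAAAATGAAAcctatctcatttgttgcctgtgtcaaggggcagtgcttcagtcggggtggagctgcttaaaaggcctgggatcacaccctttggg
They lie at chr11:313840-314039, chr10:89392423-89392622, chr1:78620248-78620447 and chr14:94110536-94110735, each on the + strand. A match began 40 bases before the start in IFITM1, 116 and 103 bases before it in IFIT1, 164 and 73 in IFI44L, and 108 and 95 in IFI27. In IFIT1 both matches lie on the other strand and so read TTTC, 2 bases and TTTC, and in IFI27 each orientation occurred. In the 250 bases before a start, 29 of the 45 interferon effectors found in the RefSeq table held the motif (64.4%), as did 514 of 14425 measured genes (3.56%) and 3.02% of all 35116 start windows. A match is a string of letters and not a measured binding site.

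Genes of antigen presentation on MHC class I rose with them, 15 of 21 measured and 0 lower, also at an unadjusted p under 0.05, with a median of 0.52. TAP1, which pumps peptides into the endoplasmic reticulum, read 10.14, 10.81 and 10.69 against 6.18, 6.39 and 6.65, a difference of 4.14 ± 0.23 (adjusted p = 1.3e-09). PSMB9, a subunit of the immunoproteasome, read 8.46, 9.55 and 9.70 against 5.55, 5.56 and 5.57, a difference of 3.68 ± 0.30 (adjusted p = 1.5e-07). Its wild-type arrays lay within 0.02 of each other, while the mutated arrays spread over more than 1 log2 unit. PSMB8, its partner subunit, rose by 2.73 and NLRC5, the transactivator of class I genes, by 3.08 (adjusted p = 6.0e-07 and 1.4e-09). HLA-B rose by 2.56 and HLA-C by 2.05, and since these genes are near copies of each other, their probe sets can share signal. B2M, the constant light chain, rose by 0.53 (adjusted p = 2.9e-05). The chaperones of the endoplasmic reticulum on the list, PDIA3, CALR and CANX, differed by 0.07, 0.11 and 0.15 and were not called (adjusted p = 0.34, 0.16 and 0.089).

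Targets of NF-kappaB, the factor of inflammatory signalling, were called more mixedly, with 11 of 28 higher and 1 lower and a median of 0.18. With dim genes left out of the fit 7 were called higher. CCL2, the monocyte chemokine, read 12.90, 12.80 and 13.01 against 10.61, 10.41 and 10.81, a difference of 2.29 ± 0.26 (adjusted p = 6.6e-06). ICAM1, an adhesion molecule for leukocytes, read 7.71, 7.99 and 8.36 against 6.33, 6.28 and 6.62, a difference of 1.61 ± 0.15 (adjusted p = 7.5e-07). IL32, an inflammatory cytokine, read 7.95, 7.76 and 7.79 against 6.39, 6.47 and 6.27, a difference of 1.46 ± 0.09 (adjusted p = 5.6e-09), and CXCL16 rose by 1.36 (adjusted p = 2.1e-06). In all 4 genes the groups stood apart. The subunits NFKB1 and NFKB2 differed by 0.10 and 0.21 and were not called (adjusted p = 0.37 and 0.16), and the 1 fall was that of the chemokine CX3CL1 (-0.42, adjusted p = 0.0036).

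The largest falls were in genes of unlike function. ELFN1, a postsynaptic adhesion protein, read 6.71, 7.37 and 6.63 on the APP_AG494 arrays and 10.68, 10.81 and 10.88 on the WT_AG494 arrays. The difference was -3.89 ± 0.16, so that the mutated cells were 14.8-fold lower (adjusted p = 6.0e-11). CUX2, a homeobox factor of upper-layer neurons, read 7.13, 7.16 and 6.65 against 11.01, 10.57 and 10.55, a difference of -3.73 ± 0.13 (adjusted p = 6.0e-12). OPRM1, the mu opioid receptor, read 7.09, 6.96 and 7.01 against 10.81, 10.24 and 10.05, a difference of -3.35 ± 0.17 (adjusted p = 5.7e-10). In each of these genes all wild-type arrays lay more than 2 log2 units above all mutated arrays. TVP23A, NEDD9 and TFPI had differences of -2.85, -2.79 and -2.68, TNFAIP6 of -2.55, PCDHB3, a clustered protocadherin, of -2.41 and LDLRAD4 of -2.40. Each was called with no overlap between the groups, as the choice of the largest falls required. Adjusted p ran from 5.4e-11 for PCDHB3 to 6.2e-07 for TNFAIP6. NEDD9 is a docking protein of focal adhesions and TFPI an inhibitor of coagulation.

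Among the receptors and scaffolds of the postsynapse, 11 of 42 fell and 2 rose. GRM8, a metabotropic glutamate receptor, read 5.32, 5.18 and 5.17 against 7.68, 6.73 and 6.27 (difference -1.67 ± 0.18, adjusted p = 5.1e-06). SHANK1, a scaffold of the postsynaptic density, read 6.51, 6.17 and 6.37 against 7.72, 7.81 and 7.78 (difference -1.42 ± 0.15, adjusted p = 3.9e-06). The groups did not overlap in either. The nicotinic receptor subunits CHRNA3 and CHRNA5 differed by 0.09 and 0.14 and were not called (adjusted p = 0.22 and 0.13). Presynaptic and vesicle genes went both ways, with 11 of 31 higher and 5 lower. The falls were the larger, with SV2C, a vesicle protein, at -2.02 ± 0.21, CPLX2, a complexin that clamps fusion, at -1.56 ± 0.12 and NRXN2, a neurexin, at -1.03 ± 0.07 (adjusted p = 2.5e-06, 8.3e-08 and 3.2e-08). DOC2B, a calcium sensor of release, rose by 0.85 (adjusted p = 2.5e-04), and the other 10 rises lay between 0.23 (VAMP2) and 0.70 (SYT5). Only 4 presynaptic genes were higher with no run term, and 7 without run 1 of APP_AG494. SNAP25, of the fusion complex itself, differed by -0.10 (adjusted p = 0.20).

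Peptide transmitters differed in both directions, 4 of 23 higher and 6 lower. VIP, vasoactive intestinal peptide, read 4.80, 5.06 and 5.25 against 7.96, 8.65 and 8.68, a difference of -3.40 ± 0.18 (adjusted p = 9.3e-10). NPY, the sympathetic co-transmitter, read 12.16, 11.88 and 11.79 against 10.86, 10.72 and 10.90, a difference of 1.12 ± 0.12 (adjusted p = 6.4e-06). NMU differed by -1.07 and the granin SCG2 by 0.64 (adjusted p = 1.3e-07 and 6.1e-05). In all 4 the groups stood apart, VIP and NMU with the wild-type arrays high and NPY and SCG2 with the mutated arrays high. The higher count fell to 2 without run 1 of APP_AG494, without run 2 of WT_AG494 or with no run term.

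Of the ion channels, potassium channels were lower in 6 of 23 and higher in 2, and calcium and sodium channels higher in 5 of 21 and lower in 1. CACNA2D3, an auxiliary subunit of calcium channels, read 8.97, 9.27 and 9.34 against 6.18, 6.88 and 7.48, a difference of 2.35 ± 0.19 (adjusted p = 1.6e-07). SCN9A, the sodium channel of sympathetic and sensory neurons, read 11.69, 11.65 and 11.69 against 10.51, 10.31 and 10.66 (difference 1.18 ± 0.10, adjusted p = 1.5e-07). KCNMA1, the large-conductance potassium channel gated by calcium, read 7.45, 7.32 and 7.79 against 8.82, 8.66 and 8.77 (difference -1.23 ± 0.18, adjusted p = 9.9e-05). The groups stood apart in these 3 genes, although the WT_AG494 arrays of CACNA2D3 spread over more than 1 log2 unit. KCNH7 rose by 1.13 and KCNQ3 fell (-0.91) (adjusted p = 2.7e-05 and 1.8e-04). Of the 5 calcium and sodium channels that rose, 2 were called with no run term, and 2 or 3 were called without run 1 of either group or run 2 of either group.

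Axon guidance and adhesion genes were higher in 9 of 54 and lower in 10. SEMA3A, a repellent cue, read 10.57, 10.30 and 10.28 against 8.86, 8.45 and 8.63, a difference of 1.74 ± 0.11 (adjusted p = 5.6e-09). SLIT2, the ligand of ROBO receptors, read 8.44, 8.47 and 8.58 against 10.45, 10.27 and 10.19, a difference of -1.80 ± 0.10 (adjusted p = 1.0e-09), while its receptor ROBO2 rose by 1.25 (adjusted p = 3.3e-05). The 3 SLIT ligands fell together, SLIT1 with -0.91 and SLIT3 with -0.66 (adjusted p = 3.4e-04 and 3.2e-06). PCDH7 fell (-1.82) with 4 of its 5 probe sets of that sign (adjusted p = 7.5e-09). CDH2 and NCAM1, broad neural adhesion molecules, differed by 0.09 and 0.05 and were not called (adjusted p = 0.34 and 0.62). In the neuronal cytoskeleton 7 of 32 rose and 7 fell, and with no run term 3 rose and 4 fell. The 3 neurofilament genes fell, NEFM with -1.31, NEFL with -0.55 and NEFH with -0.52 (adjusted p = 8.6e-08, 3.3e-04 and 0.0034), and the microtubule protein MAP1A rose by 0.61 (adjusted p = 2.2e-06). Without run 3 of WT_AG494, 4 cytoskeletal genes were lower.

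Bone morphogenetic proteins (BMPs) act through SMADs to induce ID genes, which hold back neuronal differentiation. Of 30 genes of BMP, TGF-beta and ID signalling 11 fell and 2 rose. BMP4, a ligand, read 6.99, 7.31 and 7.33 against 10.91, 10.25 and 9.74, a difference of -3.09 ± 0.25 (adjusted p = 1.6e-07). ID1 read 7.23, 6.94 and 7.07 against 9.81, 9.26 and 8.96, a difference of -2.26 ± 0.14 (adjusted p = 5.5e-09), and ID2 and ID3 fell as well (-0.94 and -1.13) (adjusted p = 1.7e-05 and 9.8e-08). The wild-type arrays were highest in run 1 and lowest in run 3 for BMP4 and ID1, and still lay above all mutated arrays. The inhibitors SMAD6 and SMAD7, themselves BMP targets, fell, with -1.14 and -0.93 (adjusted p = 1.3e-07 and 7.3e-06). TGFB3, a ligand of the other branch, rose by 1.33, and the receptors TGFBR1, BMPR1B and ACVR1 differed by -0.06, 0.12 and 0.13 and were not called (adjusted p = 1.7e-07, 0.53, 0.43 and 0.10).

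Matrix genes were lower in 12 of 42 and higher in 4, shares of 28.6% and 9.52% beside the 8.47% and 8.45% of all genes. The collagen IV chains COL4A1 and COL4A2, which share a promoter and form 1 trimer of the basement membrane, fell, with -2.10 and -1.51 (adjusted p = 4.5e-08 and 5.0e-09). SMOC1, a matricellular protein that binds calcium, read 10.31, 9.89 and 9.63 against 6.94, 7.89 and 7.42, a difference of 2.52 ± 0.24, whereas its relative SMOC2 read 5.89, 5.68 and 5.86 against 7.96, 7.37 and 7.76, a difference of -1.89 ± 0.28 (adjusted p = 1.2e-06 and 1.4e-04). The 2 relatives thus differed in opposite directions with no overlap of arrays. COL3A1, a fibrillar collagen, and SPARC, which binds collagen, differed by 0.07 and 0.14 and were not called (adjusted p = 0.35 and 0.17).

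Markers of the noradrenergic neuroblast were called in both directions, 6 of 28 higher and 8 lower. MYC, the growth factor-responsive oncogene, read 7.14, 7.17 and 7.31 against 10.03, 9.35 and 9.21, a difference of -2.33 ± 0.19, or 5.02-fold lower (adjusted p = 1.3e-07). MYCN, its relative, rose by 0.62 (adjusted p = 8.9e-04). MAOB, which breaks down amines, fell (-1.56), and the vesicular transporter SLC18A2 read 10.12, 9.47 and 9.14 against 8.78, 8.14 and 7.27 (adjusted p = 4.5e-07 and 3.2e-05). In SLC18A2 the groups did not overlap, both were highest in run 1, and the call was lost with no run term (adjusted p = 0.065). The defining factor HAND2 and the receptor RET, at 12.84, 12.69 and 12.70 and 13.06, 12.95 and 12.98 on the mutated arrays, differed by 0.05 and 0.09 and were not called (adjusted p = 0.61 and 0.31). Of 23 genes of the mesenchymal neuroblastoma state 5 fell and 1 rose, among the falls SNAI2 (-1.04) and NOTCH3 (-0.65) (adjusted p = 3.8e-04 and 3.1e-05).

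Genes of mitosis and of DNA replication were lower in the mutated cells. Of 40 genes of mitosis 38 fell, where 8.47% of all genes fell, with a median of -0.47, and 0 rose (1 at an unadjusted p under 0.05). The mean over the list was 10.24, 10.10 and 10.11 on the APP_AG494 arrays and 10.78, 10.61 and 10.48 on the WT_AG494 arrays, so that the groups did not overlap. CENPA, the histone variant of centromeres, read 9.77, 9.47 and 9.43 against 10.51, 10.27 and 10.07, a difference of -0.73 ± 0.10 (adjusted p = 4.8e-05). CCNB2, a mitotic cyclin, read 10.11, 9.95 and 10.04 against 10.85, 10.67 and 10.54, a difference of -0.65 ± 0.07 (adjusted p = 5.7e-06). Falls were also called in KIF20A, a kinesin of cytokinesis (-0.66), ECT2, which places the cleavage furrow (-0.71), and MKI67, the proliferation antigen (-0.61) (adjusted p = 3.1e-05, 9.1e-04 and 0.0018). Sizes in the list lay well under those of the interferon list, with CENPA the largest. The 2 members not called were BUB3 (0.13) and ANLN (-0.24), with adjusted p = 0.14 and 0.13, the latter called without run 3 of WT_AG494 (adjusted p = 0.030). As each array measured the RNA of a whole culture, fewer cells of a type and less RNA per cell cannot be told apart.

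Genes of DNA replication fell with smaller sizes, 32 of 41 lower and 0 higher (1 at an unadjusted p under 0.05), with a median of -0.30. The list mean was 10.39, 10.42 and 10.41 on the mutated arrays and 10.72, 10.70 and 10.64 on the wild-type arrays. UHRF1, which carries DNA methylation through replication, read 9.84, 10.00 and 9.94 against 10.34, 10.66 and 10.46 (difference -0.56 ± 0.10, adjusted p = 4.7e-04), with 2 of its 3 probe sets of that sign. E2F7, a repressor of the E2F programme, the cyclin CCNE2 and the helicase subunit MCM4 fell, with -0.42, -0.48 and -0.37 (adjusted p = 4.7e-04, 0.0037 and 1.5e-04). The count was 20 with no run term, 20 without run 1 of WT_AG494, and 9 or 14 without the whole of run 1 or run 2, where CCNE2 was not called (adjusted p = 0.096 and 0.058). Of 15 cyclins, kinases and inhibitors 5 fell and 1 rose, and 3 fell with no run term. CDKN2A, the locus of the inhibitors p16 and ARF, read 6.43, 6.60 and 7.21 against 9.59, 9.46 and 8.92, a difference of -2.58 ± 0.22 (adjusted p = 2.0e-07), with the groups apart. CDKN1A, the inhibitor p21, rose by 0.47 (adjusted p = 0.022), a call that was lost without run 1 or 3 of APP_AG494 (adjusted p = 0.074 and 0.096) and without run 1 or 2 of WT_AG494 (adjusted p = 0.14 and 0.076). CDK4, CDK6 and RB1 differed by -0.14, 0.05 and -0.01 and were not called (adjusted p = 0.19, 0.64 and 0.94). Of 23 p53 targets 6 rose and 1 fell, but with no run term 1 rose, and without run 1 or run 3 of APP_AG494 or run 1 or run 2 of WT_AG494 the number was 1 or 2.

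The upstream sequence of 2 mitotic genes holds letters that match the cell cycle homology region (CHR). The CHR is an element through which the DREAM and MuvB complexes act on such genes. They are printed as above, with matches to TTTGAA on either strand in capitals.
CENPA: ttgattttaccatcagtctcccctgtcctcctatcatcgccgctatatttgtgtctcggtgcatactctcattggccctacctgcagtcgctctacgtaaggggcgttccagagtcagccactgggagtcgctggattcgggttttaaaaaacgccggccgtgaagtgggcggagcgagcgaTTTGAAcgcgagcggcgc
ECT2: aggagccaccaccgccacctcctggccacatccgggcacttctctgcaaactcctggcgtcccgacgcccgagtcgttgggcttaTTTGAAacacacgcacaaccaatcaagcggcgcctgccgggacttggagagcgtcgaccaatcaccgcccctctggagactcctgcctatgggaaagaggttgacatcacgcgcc
They lie at chr2:26785856-26786055 and chr3:172750526-172750725 on the + strand, and the match began 18 bases before the start in CENPA and 115 in ECT2. The motif stood in the 250 bases before a start of 20 of the 34 mitosis genes found in the RefSeq table (58.8%), of 6 of the 45 interferon effectors and of 14.2% of measured genes. ISRE letters were found in 1 of the 34 mitosis genes. These matches too are strings of letters and not measured binding sites.

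**Figure D2:**
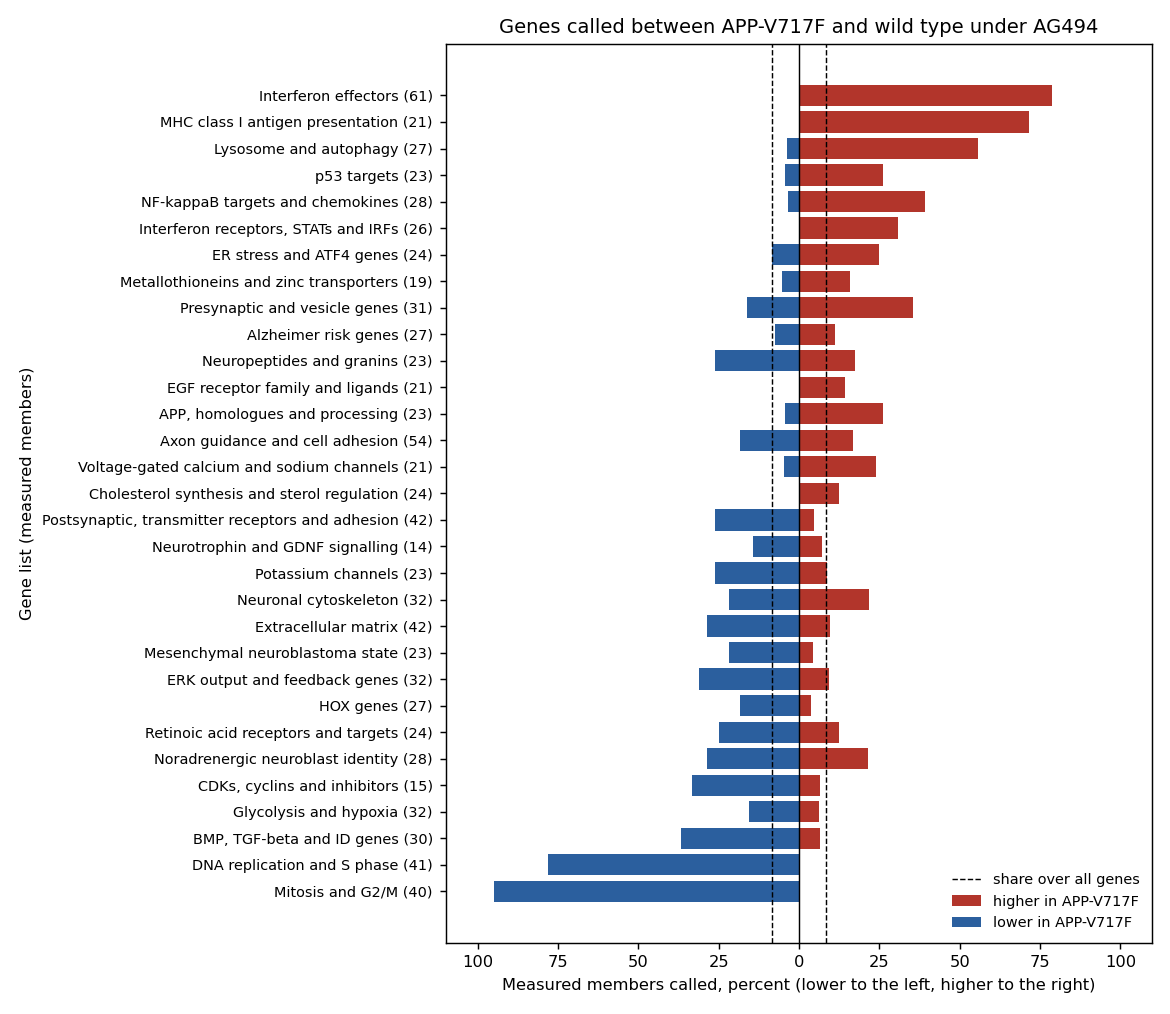
Percentage of the measured members of 31 gene lists (vertical axis, number of members in brackets) that were called higher (red, right) or lower (blue, left) in APP_AG494 than in WT_AG494, ordered by the list's median difference. Dashed lines mark the share over all genes, 8.45% higher and 8.47% lower; interferon effectors (48 of 61) and mitosis (38 of 40) lie at the ends.

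AG494 is aimed at the EGF receptor, so its family, ligands and output were looked at as a group. Of 21 members 3 rose and 0 fell (1 at an unadjusted p under 0.05). ERBB4, a receptor for neuregulins, read 9.02, 9.08 and 9.17 against 8.25, 8.06 and 8.58 (difference 0.80 ± 0.14, adjusted p = 8.0e-04). LRIG1, which lowers the receptors' level, rose by 0.83 and the ligand NRG2 by 0.66 (adjusted p = 0.0014 and 0.0042). Without the whole of run 2 none of the 3 was called (adjusted p = 0.061, 0.064 and 0.085). The groups stood apart in ERBB4, and the adaptors SHC1 and GRB2 differed by 0.07 and 0.09 and were not called (adjusted p = 0.47 and 0.29). EGFR itself read 11.07, 11.06 and 10.89 against 11.11, 10.86 and 11.09, a difference of -0.01 ± 0.11 (adjusted p = 0.96). It is named outside the rule for named genes because it is the compound's target.

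Among 32 genes that ERK signalling induces, 10 fell and 3 rose. EGR1, an early response factor, read 10.73, 10.49 and 10.98 against 11.76, 11.92 and 12.36, a difference of -1.28 ± 0.15 (adjusted p = 1.1e-05). PHLDA1 read 11.67, 11.47 and 11.38 against 9.94, 10.18 and 10.75, a difference of 1.22 ± 0.22, and DUSP4, a phosphatase that ends the signal, rose by 0.78 (adjusted p = 8.2e-04 and 0.0010). The groups stood apart in EGR1 and PHLDA1, with WT_AG494 highest in run 3, and PHLDA1 was not called without the whole of run 2 (adjusted p = 0.054). With no run term 6 ERK genes were lower, and 6 or 4 without the whole of run 1 or run 2. The feedback genes DUSP6, SPRY4 and ETV5 differed by 0.17, 0.14 and 0.15 and were not called (adjusted p = 0.20, 0.25 and 0.26).

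All cultures had retinoic acid and BDNF. Of 24 retinoic acid genes 6 fell and 3 rose, with NEDD9 the largest fall, TGM2, transglutaminase 2, at -0.76 ± 0.10 and MEIS1, a HOX cofactor, at -0.57 ± 0.06 (adjusted p = 6.2e-05 and 5.4e-06). The degrading enzyme CYP26B1 differed by 0.11 and was not called (adjusted p = 0.19). Of the 3 rises 1 was called with no run term, without run 3 of APP_AG494 and without run 1 of WT_AG494. Of 14 genes of neurotrophin and GDNF signalling 2 fell and 1 rose, shares of 14.3% and 7.14% beside the 8.47% and 8.45% of all genes. NTRK2, the BDNF receptor, read 11.52, 11.34 and 11.10 against 12.36, 11.97 and 11.88, and the fall (-0.75) had the same sign and was called in all 10 of its probe sets (adjusted p = 2.5e-06). GFRA2, a co-receptor of RET, fell (-1.40) and SORCS2, a sortilin-like receptor, read 10.45, 10.39 and 10.73 against 7.84, 8.61 and 9.52 (difference 1.87 ± 0.28, adjusted p = 7.0e-05 and 1.5e-04). The wild-type arrays of SORCS2 ranged over more than 1 log2 unit and all lay below the mutated ones. Of 27 HOX genes 5 fell and 1 rose, shares of 18.5% and 3.70%. Among the falls were HOXD10 (-0.55) and HOXB8 (-1.29) (adjusted p = 1.4e-04 and 0.0031), the second not called without the whole of run 2 (adjusted p = 0.060).

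Genes that process APP were slightly higher in 6 of 23 and lower in 1, with a median of 0.04. ECE1, a peptidase that degrades amyloid-beta, read 10.29, 10.39 and 10.24 against 9.84, 9.83 and 9.91, a difference of 0.44 ± 0.05 (adjusted p = 1.6e-05), called in all 5 of its probe sets. APH1B and PSEN2, of gamma-secretase, rose by 0.38 and 0.31 (adjusted p = 0.0011 and 0.011), APH1B not without the whole of run 2 (adjusted p = 0.059). PSEN2 was not called with no run term (adjusted p = 0.067) or without run 1 of WT_AG494 (adjusted p = 0.098), where 3 genes of the list were higher. The homologue APLP2 differed by -0.05 (adjusted p = 0.50). Of 27 genes at Alzheimer risk loci 3 rose and 2 fell, shares of 11.1% and 7.41% beside the 8.45% and 8.47% of all genes. CLU, clusterin, a secreted chaperone, read 9.58, 9.68 and 9.92 against 8.27, 8.53 and 8.99, a difference of 1.13 ± 0.10 (adjusted p = 3.6e-07), with no overlap. ADAMTS1 fell (-0.91), a call lost with no run term (adjusted p = 4.8e-04 and, with no run term, 0.056).

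Lysosomal and autophagy genes rose in 15 of 27 and fell in 1, with a median of 0.25. The list mean was 10.95, 10.91 and 10.93 on the mutated arrays and 10.66, 10.72 and 10.74 on the wild-type arrays. CTSA, a protective protease, read 12.05, 11.98 and 12.00 against 11.48, 11.49 and 11.66 (difference 0.47 ± 0.07, adjusted p = 1.8e-04). NPC2, which binds cholesterol in the lysosome, read 12.36, 12.24 and 12.25 against 11.90, 11.88 and 11.91 (difference 0.39 ± 0.06, adjusted p = 2.3e-04). The groups did not overlap in either gene, and the 15 rises lay between 0.16 (CD63) and 0.47 (CTSA). PSAP, a precursor of sphingolipid activators, and LAMP1, a membrane protein of the lysosome, differed by 0.10 and 0.10 and were not called (adjusted p = 0.17 and 0.18). Without run 1 of WT_AG494, 9 were called higher, and without the whole of run 1 or run 2, 5 or 8. Of 24 genes of cholesterol synthesis 3 were higher and 0 lower (2 at an unadjusted p under 0.05), and 1 was higher with no run term, with only the 6 arrays in the fit or without run 1 of WT_AG494.

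Of 24 genes of endoplasmic reticulum (ER) stress 6 rose and 2 fell, of 19 metallothioneins and zinc transporters 3 rose and 1 fell, and of 32 genes of glycolysis and hypoxia 2 rose and 5 fell. In that order the shares higher were 25.0%, 15.8% and 6.25%, where 8.45% of all genes rose. The shares lower were 8.33%, 5.26% and 15.6%, where 8.47% of all genes fell. ATF3, a stress-induced factor, read 10.35, 10.36 and 10.79 against 9.18, 9.42 and 9.95, a difference of 0.98 ± 0.10 (adjusted p = 2.5e-06). ADM, adrenomedullin, which hypoxia induces, read 9.42, 9.10 and 9.46 against 8.23, 7.92 and 7.99, a difference of 1.28 ± 0.19 (adjusted p = 1.2e-04). PFKP, a phosphofructokinase, and LDHA, lactate dehydrogenase, fell (-0.89 and -0.57) (adjusted p = 3.3e-05 and 0.0010, and for LDHA 0.056 without the whole of run 1), while GAPDH differed by 0.03 (adjusted p = 0.75). MT2A rose by 0.80 and the vesicular zinc transporter SLC30A3 fell (-1.39) (adjusted p = 8.0e-05 and 1.8e-04). Without run 1 or run 2 of either group, 2 or 3 glycolysis genes were lower, and 3 ER stress genes were higher with no run term and 2 without run 2 of WT_AG494.

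Apart from the interferon, MHC class I, replication, mitosis and lysosome lists, the list medians lay between -0.13 (BMP, TGF-beta and ID genes) and 0.20 (p53 targets), against 0.02 over all genes. The counts of every list above stand beside the 8.45% of all genes that rose and the 8.47% that fell.

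The labelled cell type was read from its markers. Of 9 neuroblast markers 2 rose (CHGA and L1CAM) and 2 fell (ELAVL4 and DBH), and the list mean was 12.20 to 12.32 on the mutated arrays and 12.17 to 12.24 on the wild-type arrays. Immune markers, 15 measured, had means of 5.93 to 6.05 and 5.89 to 5.96, and 1 rose, CD68 (0.45, adjusted p = 5.7e-04). PTPRC, which defines leukocytes, read 4.88, 4.91 and 4.95 against 4.79, 4.96 and 5.17 on arrays whose lowest value was 4.14, and the groups overlapped. Glial markers had means of 6.16 to 6.21 and 6.17 to 6.24 with 1 of 10 lower (S100B, -0.77). Fibroblast and endothelial markers had means of 8.22 to 8.35 and 8.13 to 8.32 with 4 of 13 higher and 2 lower, and 2 or 1 higher without run 2 or 3 of APP_AG494 or run 1 or 2 of WT_AG494. The part of such cells in the matrix genes was not tested. In the order neuroblast, immune, glial and fibroblast, the shares higher were 22.2%, 6.67%, 0% and 30.8%, where 8.45% of all genes rose. The shares lower were 22.2%, 0%, 10.0% and 15.4%, where 8.47% of all genes fell.

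The genotype difference under AG494 was set beside the same difference in arrays it does not share, under vehicle and under NOSCA. There 3151 genes (17.4%) were called between APP_DMSO and WT_DMSO and 2680 (14.8%) between APP_NOSCA and WT_NOSCA. Of the 3068 genes called under AG494, 1586 were called in the same direction under vehicle (51.7% of the AG494 calls and 50.3% of the vehicle calls) and 23 in the opposite direction. With NOSCA 1589 were shared (51.8% and 59.3%) and 9 opposed. All 3 comparisons called 1231 genes the same way, 631 higher and 600 lower. Across 18132 genes, which are not independent replicates, the difference under AG494 had r = 0.784 with that under vehicle and r = 0.828 with that under NOSCA. Of the AG494 calls 89.5% had the same sign under vehicle and 93.7% under NOSCA.

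**Figure D3:**
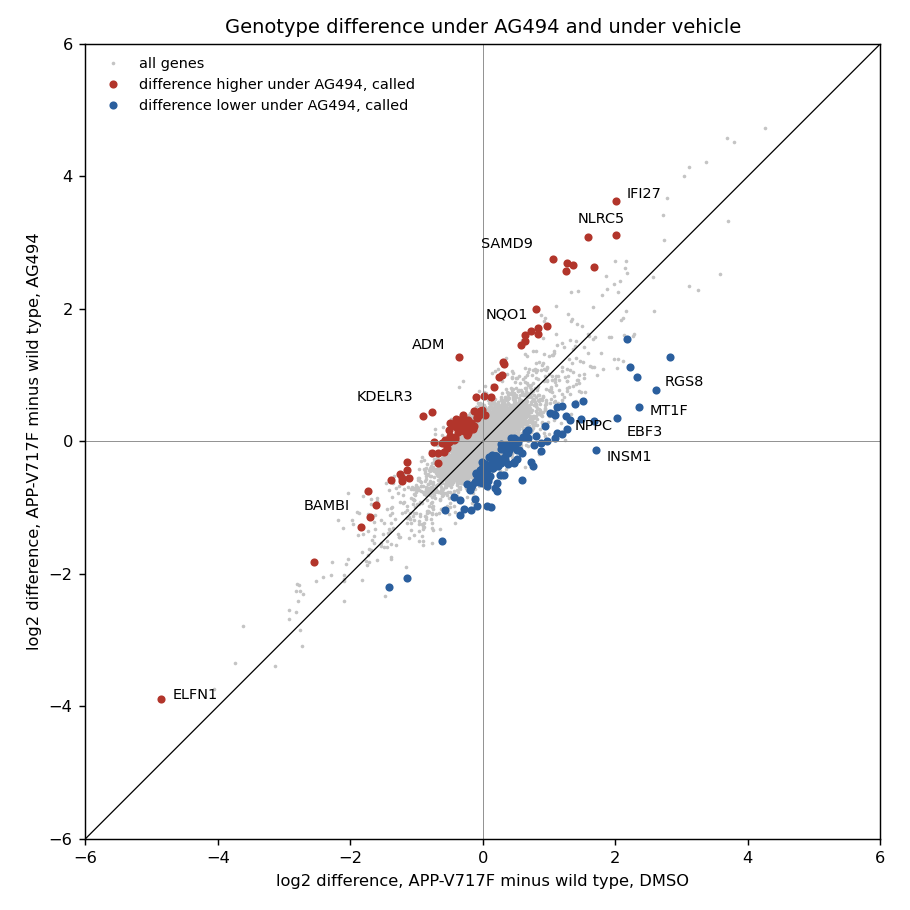
Log2 difference between APP-V717F and wild type under AG494 (vertical axis) against that under DMSO (horizontal axis), 1 point per gene, with the line of equal differences. The 95 genes whose difference was called higher under AG494 (red) and the 134 called lower (blue) lie off the line, as SAMD9 (2.76 and 1.07) and EBF3 (0.35 and 2.03) do.

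The largest rises and falls were also called in the other arrays. IFITM1 differed by 4.25 under vehicle and 3.91 under NOSCA, and IFI44 by 3.70 and 3.20. ELFN1 differed by -4.85 and -4.31, CUX2 by -4.05 and -4.12, and BMP4 by -2.73 and -2.90. For ELFN1 the difference was smaller in size under AG494 than under vehicle by 0.96 ± 0.23 (adjusted p = 0.049).

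Interferon effectors were higher in 37 of 61 under vehicle and 39 under NOSCA, where 10.2% and 7.99% of all genes were, with medians of 0.92 and 0.88 against 1.67 under AG494. The list mean was 8.60, 8.99 and 8.96 in APP_AG494, 8.04, 8.32 and 8.38 in APP_DMSO and 8.04, 8.35 and 8.32 in APP_NOSCA. In wild-type cells it was 7.13, 7.18 and 7.29 with AG494, 7.12, 7.03 and 7.08 with vehicle and 7.15, 7.09 and 7.17 with NOSCA. All APP_AG494 arrays lay above the other mutated arrays, and all wild-type arrays were low. MHC class I genes were higher in 11 of 21 under vehicle and 12 under NOSCA.

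**Figure D4:**
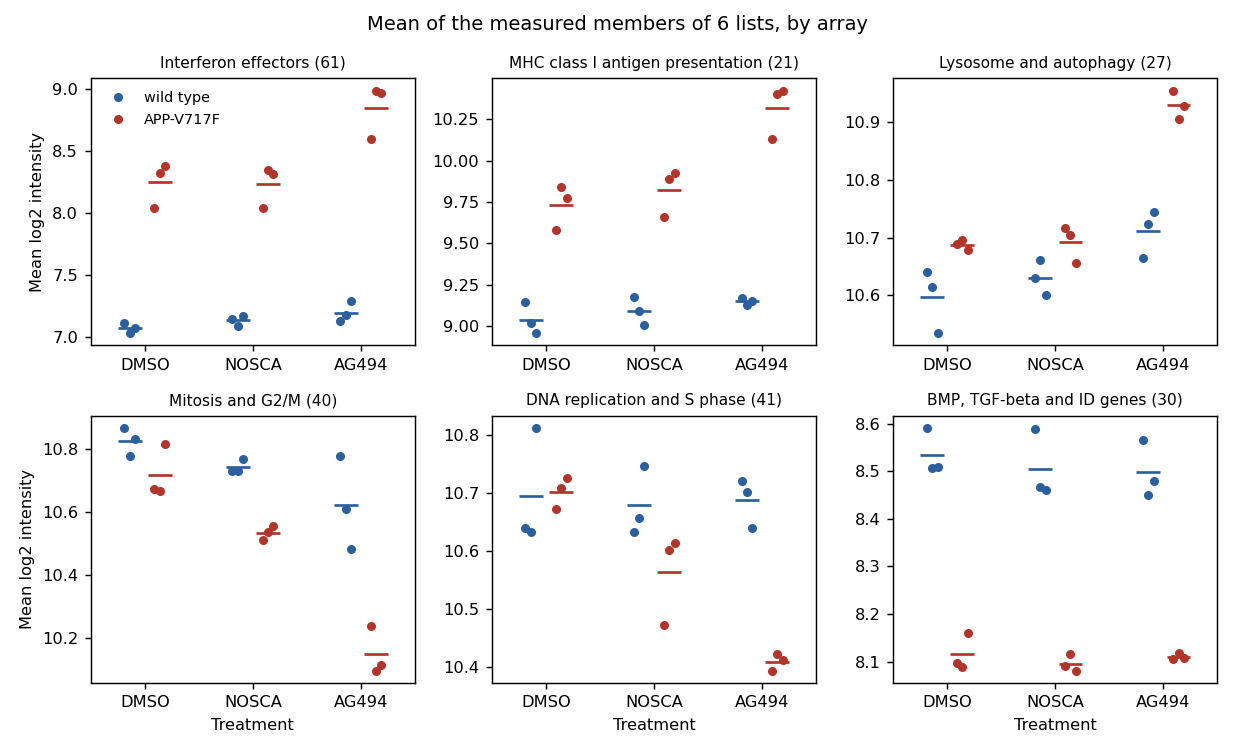
Mean log2 intensity (vertical axis) over the measured members of 6 gene lists by treatment (horizontal axis), 1 point per array and a line at the mean of 3 arrays, blue for wild type and red for APP-V717F. Vertical scales differ and do not start at 0. Interferon means reach 8.60 to 8.99 in APP_AG494, and mitosis means fall to 10.10 to 10.24 there.

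For mitosis the genotype difference was called in 38 of 40 genes under AG494, in 2 under vehicle and in 12 under NOSCA, all lower, where 7.14% of all genes were lower under vehicle and 6.79% under NOSCA. With no run term the counts were 0 under vehicle and 4 under NOSCA. Other settings raised the vehicle count, to 9 with arrays centred on their medians, 10 with array weights, 6 with averaged probe sets, 6 with a trended prior, 5 with quantile normalisation and 4 with dim genes left out. The NOSCA count was 22 with array weights, 19 with a trended prior and 7 with only the compared groups in the fit, which gave 0 under vehicle. Leaving out single arrays gave 0 under vehicle without run 1 or 2 of APP_DMSO or run 1 or 3 of WT_DMSO, 1 without run 2 of WT_DMSO and 7 without run 3 of APP_DMSO. Under NOSCA it gave 3 and 7 without runs 1 and 3 of APP_NOSCA and 5 and 4 without runs 2 and 3 of WT_NOSCA. The vehicle arrays had list means of 10.67, 10.67 and 10.82 in mutated and 10.87, 10.78 and 10.83 in wild-type cells. Replication genes were lower in 1 of 41 under vehicle and higher in 2, and lower in 5 under NOSCA. The NOSCA count of lower replication genes was 0 with no run term and 1 with only the compared groups in the fit. It was 10 with averaged probe sets and 15 with array weights. It was 0 without run 1 of APP_NOSCA, run 3 of WT_NOSCA or the whole of run 1 or run 2. 

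The difference between the genotype differences under AG494 and under vehicle was called in 229 genes (1.26%), 95 with a higher value under AG494 and 134 with a lower one. With no run term it was called in 7. Of the 229, 53 had a larger difference of the same sign under AG494, 55 a smaller one and 121 the opposite sign. Against NOSCA 30 genes were called (0.165%), 22 higher and 8 lower, and 8 with no run term. Of these, 22 were among the 229. Both counts moved with single arrays. Against vehicle they were 103 and 50 without runs 2 and 3 of APP_AG494, 83 and 81 without runs 1 and 2 of WT_AG494, 105 without run 2 of APP_DMSO, and 88, 113 and 462 without runs 1, 2 and 3 of WT_DMSO. Against NOSCA they were 18 and 14 without runs 2 and 3 of APP_AG494, 11 and 9 without runs 1 and 2 of WT_AG494, 14 without run 2 of APP_NOSCA, and 9 and 16 without runs 1 and 3 of WT_NOSCA. Without the whole of run 1, 2 or 3 they were 32, 2 and 200 against vehicle and 7, 1 and 16 against NOSCA.

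Interferon effectors made up 8 of the 95 genes with a higher value, IFIT3, IFI27, IFI35, IFIH1, RIGI, OASL, SAMD9 and APOL2, where 0.524% of all genes were. SAMD9, a restriction factor, read 8.53 ± 0.11 (mean ± SD) in APP_AG494 and 5.77 ± 0.30 in WT_AG494, and 6.91 ± 0.75 and 5.84 ± 0.20 under vehicle. Its genotype difference was larger under AG494 by 1.69 ± 0.29 than under vehicle (adjusted p = 0.0099) and by 1.78 ± 0.29 than under NOSCA (adjusted p = 0.016). IFI27 had values larger by 1.62 ± 0.33 and 1.78 ± 0.33 (adjusted p = 0.028 and 0.040), and NLRC5 by 1.49 ± 0.24 and 1.40 ± 0.24 (adjusted p = 0.0084 and 0.022). HLA-B and IL32 were likewise called against both. Of the 3 MHC class I genes called against vehicle, NLRC5, HLA-B and TAP2, 0 were called with no run term, with only the 4 groups in the fit or without the whole of run 2, and 1 without run 3 of APP_AG494 or the whole of run 3. They became 5 without run 1 of APP_AG494 or run 3 of WT_DMSO. Of the 3 NF-kappaB targets, IL32, ICAM1 and TNFRSF9, 1 was called with no run term, with only those groups, or without any of 7 single arrays, namely runs 2 and 3 of APP_AG494, runs 1 and 2 of WT_AG494, run 1 of APP_DMSO and runs 1 and 2 of WT_DMSO, and 5 without run 3 of WT_DMSO. HERC6, a ubiquitin ligase of this response, was called against NOSCA alone (0.84 ± 0.12, adjusted p = 0.0057, against vehicle 0.36 ± 0.12, adjusted p = 0.15), and not with no run term (adjusted p = 0.31) or without the whole of any 1 run (adjusted p from 0.065 to 0.23). The 8 effectors became 0 with no run term or with only the arrays of the 4 groups in the fit, 1 without run 2 or run 3 of APP_AG494, 2 without run 2 of WT_AG494, 4 and 5 without runs 1 and 2 of APP_DMSO, 1 without run 1 of WT_DMSO and 15 without run 1 of APP_AG494. Without the whole of run 1, 2 or 3 the effectors became 5, 0 and 4.

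Mitosis genes made up 8 of the 134 with a lower value, CCNB1, CCNB2, BUB1B, KIF4A, NUF2, TPX2, BIRC5 and CDCA8, and replication genes 6, where 0.739% of all genes were. CCNB2 read 10.03 ± 0.08 (mean ± SD) in APP_AG494 and 10.69 ± 0.16 in WT_AG494, against 10.70 ± 0.04 and 10.86 ± 0.06 under vehicle, and its genotype difference under AG494 minus that under vehicle was -0.49 ± 0.10 (adjusted p = 0.029). Against NOSCA 0 of the 40 mitosis genes were called lower by limma, where 0.0441% of all genes were, and 24 had an unadjusted p under 0.05. CCNB2 there had -0.38 ± 0.10 (adjusted p = 0.18). The 8 mitosis genes became 0 with no run term or with only those 4 groups, and 1 or 2 without run 2 or 3 of APP_AG494, run 1 or 2 of WT_AG494, run 2 or 3 of APP_DMSO or run 1 or 2 of WT_DMSO. They became 18 without run 3 of WT_AG494. Without the whole of run 1, 2 or 3 they became 0, 0 and 4. A 1.5-fold minimum left 1 and centring on array medians 4, while averaged probe sets, array weights and a trended prior gave 13, 15 and 16. The 6 replication genes became 0 with no run term, 0 without run 2 or 3 of APP_AG494, run 1 or 2 of WT_AG494, run 2 of APP_DMSO or run 1 or 2 of WT_DMSO, 1 and 2 without runs 1 and 3 of APP_DMSO, and 10 and 14 without run 3 of WT_AG494 and of WT_DMSO.

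AG494 against vehicle, which shares the AG494 arrays with the values above, called 358 genes (1.97%) in wild-type and 2137 (11.8%) in mutated cells. Side by side, mitosis genes were lower with AG494 in 6 of 40 in wild-type and 39 in mutated cells, where 0.888% and 7.06% of all genes were. Replication genes were lower in 0 of 41 (1 at an unadjusted p under 0.05) and 30. Interferon effectors were higher in 4 and 40 of 61, where 1.09% and 4.72% of all genes were. Cholesterol genes were lower in 9 of 24 in each genotype. Median differences in wild-type and mutated cells were -0.21 and -0.56 for mitosis and -0.01 and -0.29 for replication genes. They were 0.06 and 0.56 for interferon effectors and -0.23 and -0.21 for cholesterol genes. Counts side by side do not test a difference between the genotypes.

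In 5 of the genes with the lowest p the genotype difference under AG494 had a lower value than under vehicle. EBF3, a factor of neuronal differentiation, read 7.88, 7.88 and 8.17 in APP_AG494 and 7.64, 7.55 and 7.68 in WT_AG494, a difference of 0.35 ± 0.09, against 2.03 ± 0.09 under vehicle and 1.75 ± 0.09 under NOSCA. The change in the difference was -1.68 ± 0.13 and -1.40 ± 0.13 (adjusted p = 1.0e-05 and 7.6e-05), and both were called with no run term as well, while that against NOSCA was not called without the whole of run 2 (adjusted p = 0.097). The difference of EBF3 under AG494 itself was called (adjusted p = 0.014), but not with no run term (adjusted p = 0.061), without run 3 of APP_AG494 (adjusted p = 0.079) or without run 2 or 3 of WT_AG494 (adjusted p = 0.060 and 0.057). NPPC, the C-type natriuretic peptide, read 7.24, 7.16 and 7.08 against 6.96, 7.11 and 7.07, with overlapping arrays and a difference of 0.12 ± 0.07, where vehicle gave 1.20 ± 0.07 and NOSCA 1.49 ± 0.07. The change was -1.09 ± 0.11 and -1.37 ± 0.11 (adjusted p = 1.0e-04 and 7.0e-06), that against vehicle not called without the whole of run 2 (adjusted p = 0.053). RGS8, a regulator of G protein signals, kept a difference of 0.77 ± 0.13 against 2.61 ± 0.13 and 2.04 ± 0.13, a change of -1.84 ± 0.18 and -1.27 ± 0.18 (adjusted p = 1.0e-04 and 0.0068). INSM1, a zinc finger factor of neuroendocrine differentiation, read 6.61, 6.53 and 7.23 against 6.63, 7.19 and 6.95 with overlap, a difference of -0.13 ± 0.18 against 1.71 ± 0.18 under vehicle and 0.96 ± 0.18 under NOSCA. Its change was called against vehicle (-1.84 ± 0.25, adjusted p = 0.0042, with no run term 0.080) and not against NOSCA (-1.09 ± 0.25, adjusted p = 0.11). ZIK1, a zinc finger gene, had -0.70 ± 0.08 under AG494, 0.19 ± 0.08 under vehicle and -0.29 ± 0.08 under NOSCA, so that the size was the larger under AG494. Against vehicle the change was -0.89 ± 0.11 (adjusted p = 0.0016, with no run term 0.057), and against NOSCA -0.41 ± 0.11 (adjusted p = 0.18). Without the whole of run 2 neither INSM1 nor ZIK1 was called against vehicle (adjusted p = 0.19 and 0.21), nor INSM1 without run 1 or with only the 4 groups in the fit (adjusted p = 0.059 and 0.060).

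**Figure D5:**
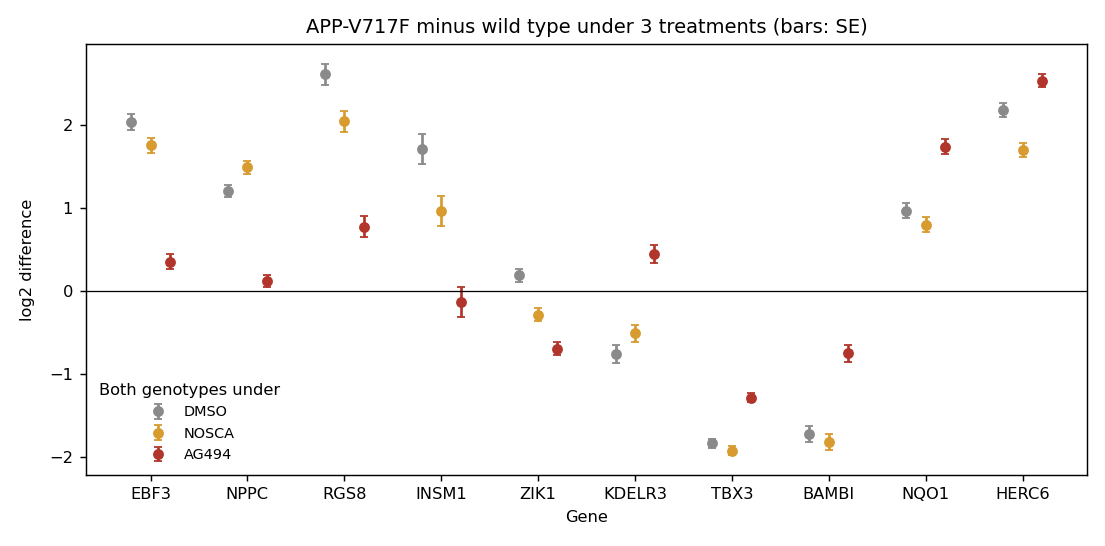
Log2 difference between APP-V717F and wild type (vertical axis, bars are SE, 3 arrays a group) for the 10 genes (horizontal axis) with the lowest p in the 2 tests of a change of the genotype difference, under DMSO (grey), NOSCA (yellow) and AG494 (red). EBF3 goes from 2.03 and 1.75 to 0.35, and KDELR3 from -0.76 and -0.51 to 0.44.

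In other genes the change ran upwards. BAMBI, a decoy receptor, had a difference of -0.76 ± 0.10 under AG494 against -1.73 ± 0.10 and -1.82 ± 0.10, and TBX3, a T-box repressor, of -1.29 ± 0.05 against -1.84 ± 0.05 and -1.93 ± 0.05. The changes were 0.97 ± 0.14 and 1.07 ± 0.14 for BAMBI (adjusted p = 0.0048 and 0.0040) and 0.55 ± 0.08 and 0.64 ± 0.08 for TBX3 (adjusted p = 0.0042 and 0.0017). Against NOSCA, BAMBI was not called with no run term (adjusted p = 0.49), nor was it, or TBX3 or NQO1, without the whole of run 1 or of run 2 (adjusted p from 0.10 to 0.33). KDELR3, which returns chaperones to the ER, read 7.45, 7.59 and 7.31 against 6.95, 7.07 and 7.01 and was higher in mutated cells under AG494 (0.44 ± 0.11) and lower under vehicle (-0.76 ± 0.11) and NOSCA (-0.51 ± 0.11). The change was 1.20 ± 0.15 and 0.95 ± 0.15 (adjusted p = 0.0016 and 0.016), that against vehicle not called without the whole of run 1 or run 2 (adjusted p = 0.082 and 0.053). Its difference under AG494 alone was called (adjusted p = 0.0079), but not without run 1 of WT_AG494 (adjusted p = 0.051). MANF and CRELD2, secreted proteins of ER stress, went the same way, MANF from -0.35 to 0.20 and CRELD2 from -0.36 to 0.26, with changes of 0.55 ± 0.08 and 0.62 ± 0.10 (adjusted p = 0.0042 and 0.0084). These last 2 genes were chosen after their values were seen. NQO1, a target of NRF2 in oxidant defence, read 10.83, 10.88 and 11.13 against 9.10, 9.35 and 9.18, a difference of 1.74 ± 0.09 against 0.97 ± 0.09 under vehicle and 0.80 ± 0.09 under NOSCA (changes 0.77 ± 0.13 and 0.94 ± 0.13, adjusted p = 0.0097 and 0.0056), with no overlap between genotypes.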

How the data were processed

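RNA of 21 cultures (25 ng each) was hybridised to Affymetrix PrimeView arrays. Per the submitters' processing notes, intensities were normalised with RMA in the affy package, versions not given in the sources used here, and the authors deposited them as log2 values for 49372 probe sets on each array. Leaving out 79 control probe sets, 44988 had 1 gene symbol, 1832 had several and 2473 had none listed. Symbols were updated through Entrez identifiers, with 44961 matched to RefSeq. For each of 18132 genes the brightest probe set, by its mean across the 21 arrays, was used, 11734 having more than 1. Y-linked genes and XIST, 25 in all, are not printed.

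Groups came from the sample titles. The title numbers 1 to 10, 11 to 20 and 21 to 30 were taken as 3 runs. The 63 pairs of arrays of the same run in different groups deviated together from their group means (r from 0.226 to 0.685), and 126 pairs of different runs did not (r from -0.529 to 0.0889). As deviations cancel out within a group, the low r between runs is not separate evidence. For all 21 arrays the closest partner in another group, by these deviations, lay in the same run. The run was therefore held as a block, as the source of pairing in the data and not in a stated protocol. limma 3.58.1 in R 4.3.3 fitted all 21 arrays with 1 term per group plus the run (12 residual and 4.64 prior degrees of freedom), with Benjamini-Hochberg adjustment over all genes and a threshold of 0.05. The fit was also run on simulated data. As these were drawn with the fitted run effects and independent noise, they cannot show whether the run block is right. The number of arrays limits precision. RMA values carry no detection limit, so low values may be background. RMA brings the overall distributions of the arrays close together, which can hide a shift of all genes. They were not equal in the deposited values, with array medians from 7.88 to 8.03.

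Genes and lists were chosen with earlier results of these data known. Named were the 12 largest rises and falls without overlap, up to 4 called members of each list with the largest differences, up to 3 uncalled members with the highest mean level, APP, and the 6 lowest p in each test of a changed difference. Beyond this rule B2M, CRELD2, CX3CL1, EGFR, EIF2AK2, HLA-B, HLA-C, ID2, ID3, MANF, MCM4, MKI67, MYCN, NEFH, NEFL, PTPRC, RIGI, SAMD9, SLIT1, SLIT3, SMAD7 and list members given only by name were chosen after their values were seen. Alternatives were no run term, only the compared groups in the fit, averaging the probe sets of each gene, no dim genes, other normalisations and priors, array weights, a 1.5-fold minimum, all probe sets and leaving out arrays or runs.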

Additional observations from a re-analysis of the deposited data

Results flagged for a closer look

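Tests of a change in the genotype difference brought out single genes. Against vehicle the log2 difference under AG494 was lower by limma in EBF3 (-1.68), NPPC (-1.09), RGS8 (-1.84), ZIK1 (-0.89) and INSM1 (-1.84), and higher in KDELR3 (1.20), among 229 genes called.

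Against NOSCA it was lower in EBF3 (-1.40) and NPPC (-1.37), and higher in TBX3 (0.64), BAMBI (1.07), NQO1 (0.94) and HERC6 (0.84), among 30 genes called. EBF3 and NPPC were thus among the 6 lowest p in both tests.

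Probe sets without a single gene symbol, which no comparison above used, also differed between APP_AG494 and WT_AG494. Of these, 502 were called, 122 higher and 116 lower of 1832 with several symbols (13.0%) and 139 higher and 125 lower of 2473 with none listed (10.7%). They were fitted and adjusted apart. The 16.9% of genes called is not a like share, as each gene was read by its brightest probe set. With all probe sets of 1 symbol tested, 6847 of 44988 were called.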

How the results depend on the processing

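With no replicate block (no run term), calls fell from 3068 to 1635 under AG494 (743 higher, 892 lower), to 1677 under vehicle, 1306 under NOSCA and 682 in all 3, and to 7 against vehicle and 8 against NOSCA for the change in the difference. With only the compared groups in the fit, they were 1270 under vehicle, 1745 under NOSCA, 779 in all 3 and 18 for the change against vehicle. A 1.5-fold minimum left 711 (328 higher, 383 lower), 834, 695, 445 and 113. Testing all probe sets gave 6847 (3095 higher, 3752 lower), 7434, 5978, 2685, 484 and 70, more features being tested. For the changes against vehicle and NOSCA, averaging each gene's probe sets gave 383 and 71, a trended and robust prior 427 and 93, and array weights 753 and 120. Leaving out an array or a run gave 1395 to 2697 calls under AG494 (651 to 1345 higher, 721 to 1352 lower), 1470 to 3185 under vehicle, 1003 to 2679 under NOSCA, 571 to 1277 in all 3, 2 to 462 for the change against vehicle and 1 to 39 against NOSCA. The cause was not tested. RFC5, a clamp loader gene, was 0.07 (adjusted p = 0.46) and became -0.25 (adjusted p = 0.0020) as the mean of its probe sets. Of 148 named genes called, 105 were called in the same direction in every alternative, while DBH, DCN, L1CAM and PDGFRA lost the call with no replicate block (adjusted p = 0.23, 0.25, 0.38 and 0.26). The counts of interferon effectors, MHC class I and mitosis genes under AG494 stayed within 1.5 times without the run term and without any 1 array or run. A 1.5-fold minimum left 9 of the 38 mitosis and 9 of the 15 MHC class I genes. It left 0 of the 32 replication and 0 of the 15 lysosomal genes.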

Other observations

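Genes of the replication-dependent histone clusters, which are transcribed in S phase, were looked at after their values were seen. Of 56 measured 36 fell and 2 rose between APP_AG494 and WT_AG494, where 8.47% and 8.45% of all genes did, with a median of -0.36. Under vehicle 24 fell and 2 rose, where 7.14% and 10.2% of all genes did. Under NOSCA 8 fell and 1 rose, where 6.79% and 7.99% of all genes did. The histone genes are near copies of each other, so that their probe sets can share signal.

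Clustered protocadherins, adhesion proteins that neurons express in individual sets, were also chosen after their values were seen, and 8.45% of all genes rose and 8.47% fell. Of 16 beta genes 3 rose and 4 fell, of 15 alpha genes 2 rose, and of 22 gamma genes 1 rose and 2 fell. Under vehicle 4 beta genes rose and 4 fell, and under NOSCA 5 rose and 5 fell. Of the alpha genes 2 rose under vehicle and 3 under NOSCA, with 0 lower in either. Of the gamma genes 3 rose and 0 fell under vehicle, and 2 rose and 1 fell under NOSCA. Over all genes 10.2% rose and 7.14% fell under vehicle, and 7.99% rose and 6.79% fell under NOSCA.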
